A study of Ovis aries with 15 samples.

Results

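The albumin gene family of the sheep was followed through late gestation in RNA of fetal liver. Its members were taken by gene name and comprised AFP (alpha-fetoprotein), ALB (serum albumin), GC (the vitamin D binding protein) and AFM (afamin), which are 4 of the 31411 genes in the count table. All 4 had enough counts to be tested, among 16977 tested genes. Liver of fetal Ovis aries had been sequenced as poly(A) RNA at gestational day (GD) 100 with 4 libraries, GD124 with 5 libraries and GD144 with 6 libraries. The labels give the tissue and the stage and name no genotype, breed, sex or treatment, so the 3 groups differ only in gestational day as far as they are described. The labels do not state whether each library of a stage is a different fetus, and p-values then measure the spread between these samples only.

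The albumin family is a set of secreted plasma proteins that arose by gene duplication and are made mainly by hepatocytes. Albumin carries fatty acids, hormones and metals and holds water in the circulation. Alpha-fetoprotein takes a comparable place in the plasma of the fetus and is shut down in the liver around birth, which has made it a standard marker of fetal liver and of liver tumours. The vitamin D binding protein carries vitamin D metabolites and binds actin released from damaged cells, and afamin binds vitamin E and keeps lipid-modified WNT proteins in solution. In mammals ALB, AFP and AFM lie side by side on the chromosome, with GC farther away in the same region. Their promoters and enhancers are bound by liver transcription factors such as HNF4A, FOXA and C/EBP proteins, while ZHX2, ZBTB20 and ZFHX3 are known repressors of AFP.

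Library totals ran from 24215612 to 38247295 counts. Levels are given as CPM, the count scaled to a fixed library size by TMM (trimmed mean of M values) normalisation. The smallest level counted as detected was 3 counts, or 0.0784 to 0.124 CPM by library, a limit that covers counting error only. Libraries that stood apart bear on what follows. In GD100 replicates 2, 3 and 4 the counts of 10.6 to 10.8% of genes were not whole numbers, and in the remaining 12 libraries this held for 5.09 to 6.2% of genes, so the members' changes are also given with replicate 1 as the only GD100 library, whose spread is then assumed to be that of the other stages. Replicate 1 itself had the highest share of counts from mitochondrial genes of all 15 libraries, 13.4%, against 3.67 to 6.02% in the other GD100 libraries, and leaving it out ended no member's call in the comparison of GD124 with GD100. In GD144 replicate 3 the 9 measured erythroid markers summed to 712 CPM, against 7.18 to 85.9 CPM in the other GD144 libraries. The sample codes begin with different letters at each stage, so a cohort or batch that follows them cannot be told apart from the stage. Hepatocyte markers were present in all libraries: 9 of the 10 listed were measured, and their summed level was 5897 to 14115 CPM in the GD100 libraries, 20703 to 27714 CPM in those of GD124 and 24238 to 41500 CPM in those of GD144.

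Transcripts of AFP fell across both intervals and nearly vanished by GD144, while those of ALB, GC and AFM rose between GD100 and GD124. In the GD100 libraries AFP stood at 6525, 3893, 3883 and 9700 CPM in replicates 1 to 4. In the GD124 libraries it stood at 1565, 2044, 2057, 595 and 1076 CPM in replicates 1 to 5. In the 6 GD144 libraries the lowest value was 3.60 CPM, the median 6.05 CPM and the highest 18.7 CPM. The 3 stages did not overlap, and the highest GD144 library, replicate 2, was far below the lowest GD124 library, replicate 4. The GD144 values rested on 120 to 509 counts per library and were thus above the floor in all 6 libraries.

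ALB, which encodes the main protein of adult plasma, followed another course. In GD100 replicates 1 to 4 it stood at 27105, 15528, 17099 and 51993 CPM. In GD124 replicates 1 to 5 it stood at 73343, 68123, 78710, 68800 and 64457 CPM. At GD144 the lowest value was 46347 CPM in replicate 1, the median 69510 CPM and the highest 73953 CPM. All GD124 libraries were above all GD100 libraries, whereas GD144 replicate 1 lay below GD100 replicate 4, and the other 5 GD144 libraries, at 67788 CPM or more, fell within the range of GD124.

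GC, the carrier of vitamin D, rose with ALB and then stood somewhat lower. In GD100 replicates 1 to 4 it stood at 1830, 2040, 2220 and 5309 CPM, and in GD124 replicates 1 to 5 at 7981, 6739, 7839, 6379 and 6496 CPM. At GD144 the lowest value was 4996 CPM, the median 5167 CPM and the highest 6529 CPM. GD100 replicate 4 stood apart from its stage and reached the GD144 range, and only GD144 replicate 6 reached the range of GD124. AFM, whose protein binds vitamin E, stood at 322, 238, 288 and 379 CPM in GD100 replicates 1 to 4. In GD124 replicates 1 to 5 AFM stood at 583, 526, 507, 446 and 413 CPM. At GD144 its lowest value was 295 CPM, its median 345 CPM and its highest 444 CPM. The GD100 and GD124 libraries of AFM did not overlap, while the GD144 libraries overlapped both earlier stages.

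**Figure D1:**
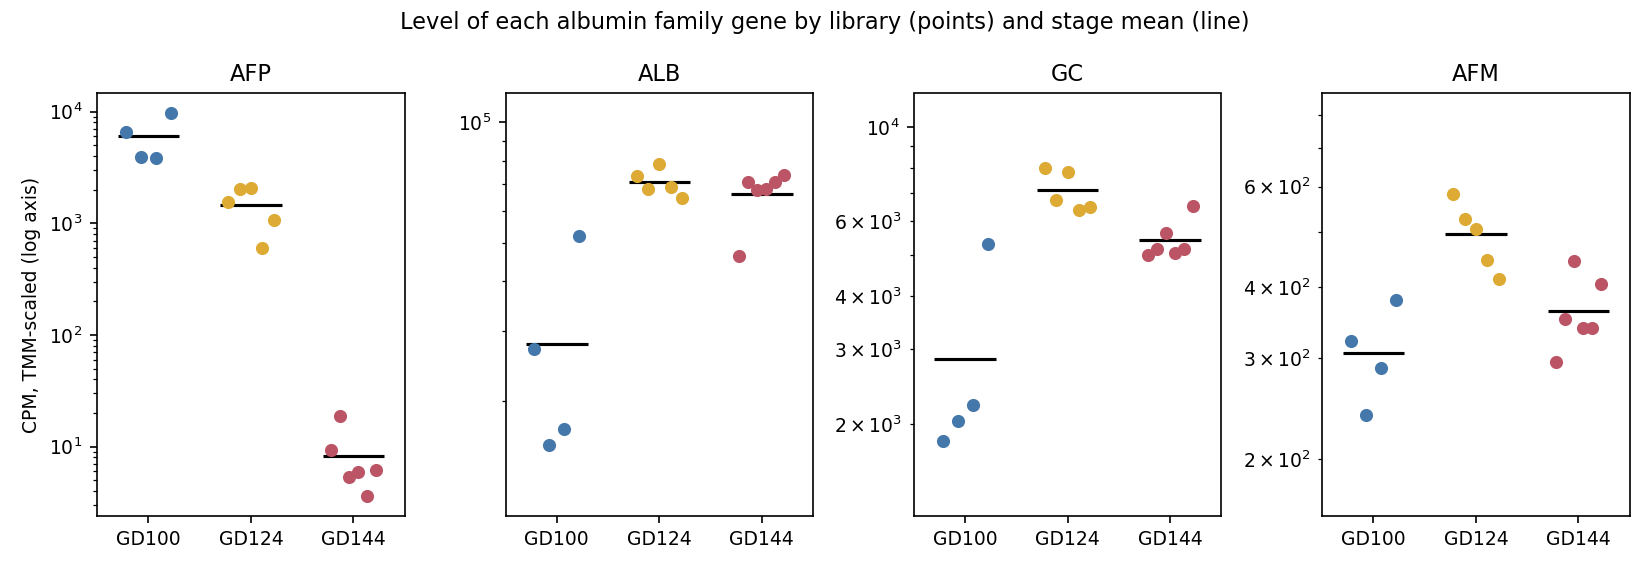
Level of each member in CPM on a log axis, with 1 point for each of the 15 libraries and a line at the stage mean. AFP drops from 3883 to 9700 CPM at GD100 to 3.60 to 18.7 CPM at GD144, whereas ALB, GC and AFM are higher at GD124 than in any GD100 library.

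Between GD100 and GD124 all 4 members passed the edgeR test with an adjusted p under 0.05, in a comparison in which 34% of all tested genes did, 16.6% with a rise and 17.4% with a fall. AFP fell by 2.03 ± 0.46 (SE) on the log2 scale, a 4.09-fold drop, with an edgeR adjusted p of 0.0037. ALB rose by 1.34 ± 0.34 with an adjusted p of 0.00647, and GC by 1.31 ± 0.28 with an adjusted p of 0.00247. The rise of AFM was smaller, at 0.69 ± 0.17 with an adjusted p of 0.00584. The mean of ALB was 27931 ± 16840.4 CPM at GD100 (SD, n = 4) and 70686 ± 5486 CPM at GD124 (SD, n = 5), and that of AFM was 307 ± 59.3 CPM and 495 ± 67.1 CPM. With replicate 1 as the only GD100 library the changes of AFP and AFM no longer passed, at a log2 change of -2.15 with an edgeR adjusted p of 0.0521 and of 0.62 with 0.102, while the rises of ALB, at 1.38, and GC, at 1.95, still passed. The rises of ALB and GC were not particular to the family: all 9 tested hepatocyte markers were also called higher, with a median log2 change of 1.385. With replicate 1 as the only GD100 library their median was 1.05 and fewer of them were called. Summed erythroid markers stood at 3655 to 9462 CPM at GD100 and at 1398 to 2989 CPM at GD124 beside these changes. The part of either marker list in the result was not tested. In pieces of whole tissue, fewer cells of a type and less RNA per cell cannot be told apart.

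Between GD124 and GD144 the members parted. AFP fell by 7.49 ± 0.53 on the log2 scale, a 180-fold drop with an edgeR adjusted p of 3.66e-07, and this was the second largest fall among the 16977 genes. AFM fell by 0.45 ± 0.15 with an adjusted p of 0.0353, which made 2 of 4 members called, both lower, against 27.5% of all tested genes, of which 15.4% were lower and 12.1% higher. For GC the log2 change was -0.39 ± 0.25 with an adjusted p of 0.266, and for ALB it was -0.09 ± 0.29 with an adjusted p of 0.852, turning to 0.025 without GD144 replicate 1. The fall of AFM was lost without the filter on low counts, at a log2 change of -0.41 and an adjusted p of 0.0816. It was also lost when any 1 of 8 libraries was left out, namely GD100 replicate 3, GD124 replicates 1, 2 and 3, and GD144 replicates 1, 2, 4 and 5, with an adjusted p of at most 0.094. GC in turn passed when only the stages compared were fitted, at -0.38 with an adjusted p of 0.0248. Mean levels at GD144 were 66329.8 ± 10036 CPM for ALB, 5421 ± 588 CPM for GC, 362 ± 53.4 CPM for AFM and 8.17 ± 5.48 CPM for AFP (SD, n = 6). Without GD144 replicate 3, the library with the most erythroid transcripts, AFP fell by 7.39 and passed the test.

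Over the whole span from GD100 to GD144, 3 of 4 members were called, against 55% of all tested genes, with 27.1% higher and 27.9% lower. AFP fell by 9.52 ± 0.58 on the log2 scale with an edgeR adjusted p of 1.36e-08, a 735-fold drop and again the second largest fall. ALB rose by 1.25 ± 0.33 with an adjusted p of 0.0038 and GC by 0.93 ± 0.27 with an adjusted p of 0.00801, although GD100 replicate 4 overlapped GD144 for both. For AFM the change was 0.24 ± 0.16 with an adjusted p of 0.223. With replicate 1 as the only GD100 library AFP fell by 9.63, ALB rose by 1.30 and GC by 1.58, with edgeR adjusted p-values of at most 0.00309. A test for any difference among the 3 stages called all 4 members, with adjusted p-values from 4.36e-08 for AFP to 0.00601 for ALB, where 56.3% of all tested genes were called.

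**Figure D2:**
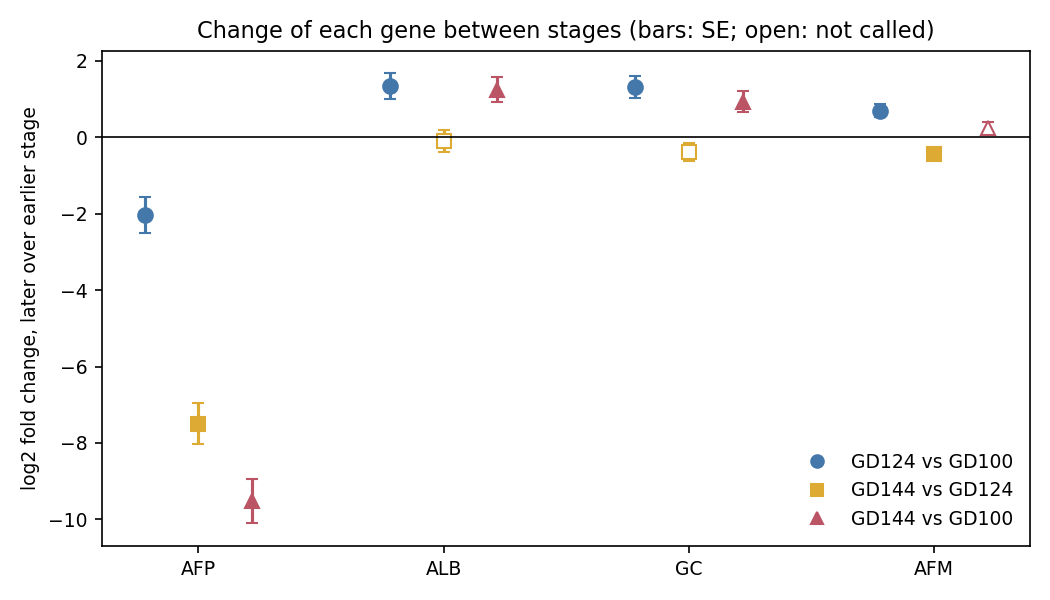
Log2 fold change of each member in the 3 stage comparisons, later over earlier stage, with bars for the standard error. Filled symbols passed edgeR with an adjusted p under 0.05: AFP fell by 7.49 between GD124 and GD144, while the open squares of ALB and GC lie at -0.09 and -0.39.

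The change from GD124 to GD144 was also compared with that from GD100 to GD124 within the same fit. For AFP the later change was lower by 5.46 ± 0.74 on the log2 scale, with an edgeR adjusted p of 0.00132. GC and AFM rose in the earlier interval and had negative changes in the later one, and the difference was -1.70 ± 0.44 for GC with an adjusted p of 0.0329 and -1.14 ± 0.27 for AFM with an adjusted p of 0.0231. For ALB the difference was -1.43 ± 0.52 with an adjusted p of 0.113. In this contrast 3 of 4 members were called, all with a negative difference, against 5.9% of all tested genes, 3.75% with a negative and 2.15% with a positive difference. The call of GC was lost without any 1 of GD100 replicates 2 and 3, GD124 replicates 1 to 5 and GD144 replicates 4 and 5, with an adjusted p of at most 0.0808. That of AFM was lost without any 1 of GD100 replicate 3 and GD124 replicates 1, 2 and 3, with an adjusted p of at most 0.0721. The ALB difference passed without GD100 replicate 4, at -1.86 with an adjusted p of 0.00548. With replicate 1 as the only GD100 library the differences were -5.32 for AFP, -1.46 for ALB and -2.33 for GC, all called, and -1.05 for AFM with an edgeR adjusted p of 0.0695.

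The family took a large part of all reads. Summed over the 4 genes it made up 3.66, 2.49, 2.61 and 6.78% of counts in GD100 replicates 1 to 4. In the GD124 libraries the share was 6.94 to 8.49%, and in the GD144 libraries 5.66 to 7.59%. The stage means were 3.89 ± 1.996% (SD, n = 4), 7.55 ± 0.64% (SD, n = 5) and 7.17 ± 0.75% (SD, n = 6). The GD124 share was higher than that of GD100 by 3.66 percentage points, with an exact two-sided permutation p of 0.0159, the smallest this design allows, and an adjusted p of 0.026 over 15 tests of shares. That call was lost without any 1 of GD100 replicates 1, 2 and 3 (adjusted exact permutation p = 0.0595). Between GD124 and GD144 the share differed by -0.376 percentage points with an exact permutation p of 0.468. ALB supplied 71.6 to 77.2% of the family's counts at GD100 and 89.7 to 92.8% at GD144. AFP supplied 14.4 to 18.2% of them in GD100 libraries, 0.78 to 2.64% in GD124 libraries and 0.00472 to 0.0245% in GD144 libraries. As counts were not divided by transcript length, these shares are shares of reads and do not rank the genes by molecules.

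GC gave a different verdict when expressed as a share of counts. It took 0.671 ± 0.0743% of counts at GD124 (SD, n = 5) and 0.540 ± 0.0380% at GD144 (SD, n = 6), and the exact permutation test gave p = 0.00866 and an adjusted p of 0.026. The test of shares uses only the 11 libraries of both stages, as does the edgeR fit restricted to them. The fit of all 15 libraries includes the widely spread GD100 values in its estimate of error.

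**Figure D3:**
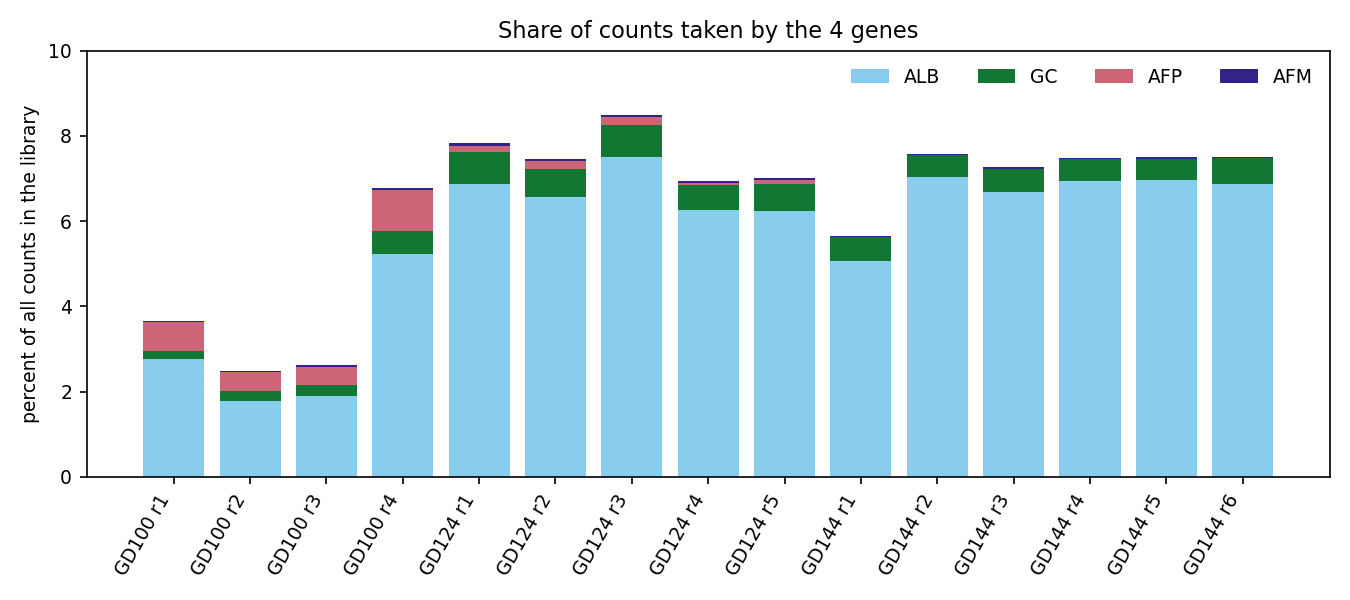
Percent of all counts taken by ALB, GC, AFP and AFM, stacked, in each of the 15 libraries (r, replicate). GD100 libraries 1 to 3 lie between 2.49 and 3.66%, GD100 replicate 4 at 6.78%, and AFP is visible only at GD100 and GD124.

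Ratios between members inside a library do not depend on depth or scaling. The count of ALB over that of AFP was 4.15, 3.99, 4.40 and 5.36 in GD100 replicates 1 to 4. It was 46.8, 33.3, 38.3, 116 and 59.9 in GD124 replicates 1 to 5, and ran from 3776 in replicate 2 to 19501 in replicate 5 at GD144. The stages were separate by a wide margin and the GD100 libraries were nearly alike. On the log2 scale the mean ratio was 2.15 ± 0.19 at GD100 (SD, n = 4), 5.73 ± 0.71 at GD124 (SD, n = 5) and 13.18 ± 0.90 at GD144 (SD, n = 6). The step from GD100 to GD124 was 3.57, with an exact permutation p of 0.0159 and an adjusted p of 0.0286 over 18 tests of ratios. The step from GD124 to GD144 was 7.45, with an exact permutation p of 0.00433 and an adjusted p of 0.0245. Each of these exact p-values is the smallest its design allows. The call of the earlier step was lost without any 1 of GD100 replicates 1, 2 and 3 (adjusted exact permutation p = 0.0536). The ratios of GC and AFM to AFP moved in the same direction without overlap between stages, by 3.51 and 2.76 in the earlier interval and by 7.17 and 7.11 in the later one.

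The ratios among ALB, GC and AFM moved much less. The log2 ratio of ALB to GC was 3.26 ± 0.45 at GD100 (SD, n = 4), 3.32 ± 0.08 at GD124 (SD, n = 5) and 3.60 ± 0.22 at GD144 (SD, n = 6). Its difference between GD124 and GD144 was 0.28, with an exact permutation p of 0.0346 and an adjusted p of 0.048, so ALB gained slightly on GC. ALB gained 1.16 on AFM from GD100 to GD144 without overlap, with an exact permutation p of 0.00952 and an adjusted p of 0.0245, and GC gained 0.82, with an exact permutation p of 0.019 and an adjusted p of 0.0312. From GD100 to GD124 alone the gains on AFM were 0.81 for ALB and 0.76 for GC, each with an adjusted exact permutation p of 0.0571.

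**Figure D4:**
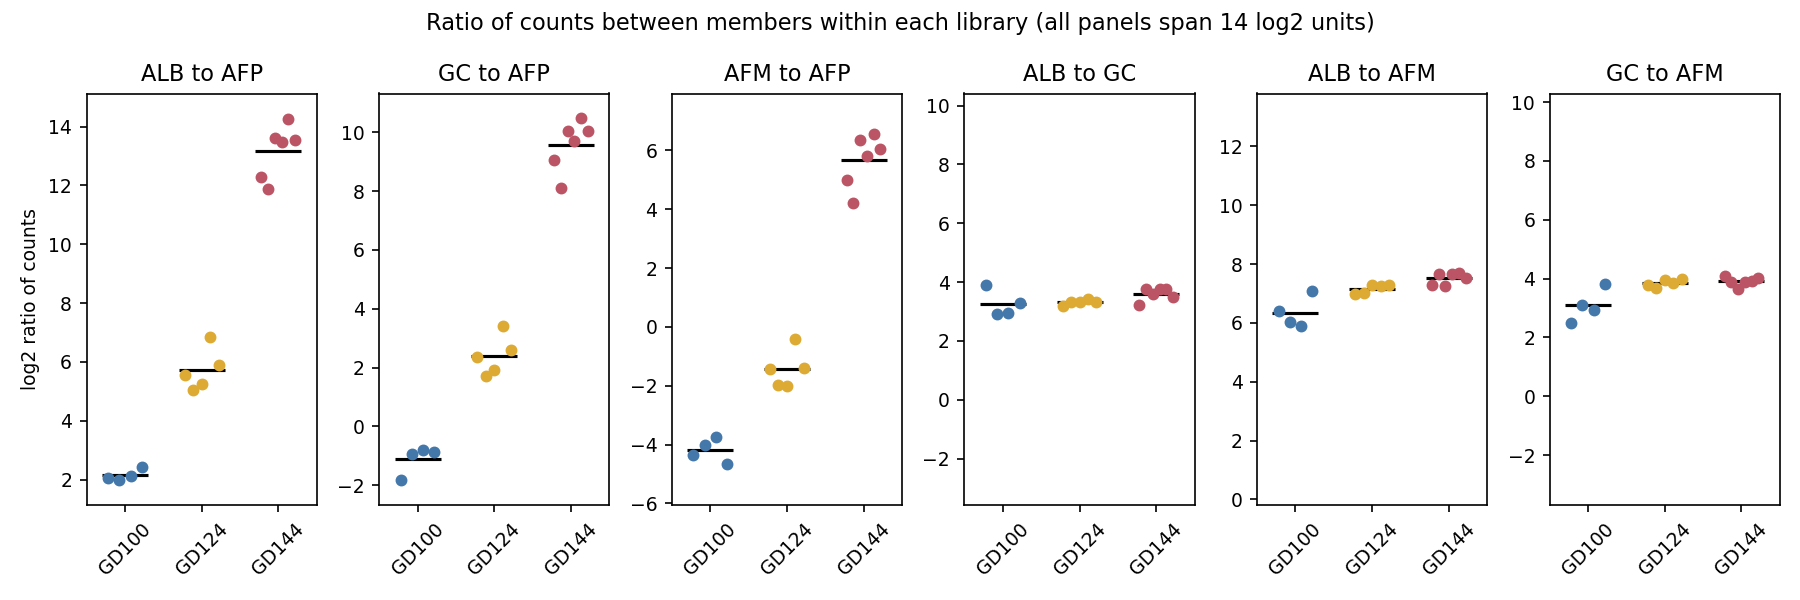
Log2 ratio of counts for each pair of members within a library, 1 point per library with a line at the stage mean, all panels spanning an equal range. The 3 ratios to AFP climb without overlap, that of ALB from 2.15 to 13.18, while the ratio of ALB to GC stays between means of 3.26 and 3.60.

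Members also differed in how much they varied among libraries of a stage. At GD100 the highest ALB value was 3.35 times the lowest, and replicate 4 was the highest library for all 4 members. The SD of log2 CPM at GD100 was 0.80 for ALB, 0.71 for GC, 0.64 for AFP and 0.28 for AFM, beside a median of 0.40 over all tested genes. At GD124 the SD of ALB was 0.11 and that of GC 0.15, below the median of 0.21 over the 1197 genes with a mean of at least 100 CPM, while AFP kept an SD of 0.75. At GD144 the SD of AFP was 0.81, beside a median of 0.31 over all tested genes. That of ALB was 0.25, beside 0.23 over the genes of at least 100 CPM. GD100 replicate 4 also had the highest hepatocyte marker sum of its stage, 14115 CPM, and the lowest erythroid sum, 3655 CPM. The part of these markers in the spread was not tested.

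Within GD144, the only stage with 6 libraries, no pair of members had a correlation that passed adjustment over the 6 pairs. The closest was GC with AFM, with Pearson's r of 0.74 (exact permutation p = 0.0861, adjusted p = 0.258) and Spearman's rho of 0.94 (exact permutation p = 0.0167, adjusted p = 0.1). Without the 2 libraries farthest from the median of GC, r was 0.80. For ALB with GC, r was 0.47 (exact permutation p = 0.0667, adjusted p = 0.258) and turned to -0.47 without the farthest 2 libraries, so it rests on them. For ALB with AFM, r was 0.65 (exact permutation p = 0.156) and -0.62 without the farthest 2. For AFP with ALB, r was -0.21 (exact permutation p = 0.525) and -0.92 without the 2 libraries farthest from the median of AFP, and for AFP with AFM it was -0.25 and -0.86. For AFP with GC, r was -0.21 and -0.46. With 4 libraries left, these values carry no test.

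The list of AFP repressors, the first group of regulators described, did not move as 1 group. Beside the known repressors ZHX2, ZBTB20 and ZFHX3 it held other genes, among them ZHX1 and ZHX3, included as relatives of ZHX2. Of the 6 measured, 2 rose and 2 fell between GD100 and GD124 and 2 rose and 1 fell between GD124 and GD144. The median log2 changes were 0.05 and 0.34, beside 0.02 and -0.01 over all tested genes. Both later rises were those of ZHX3 and ZHX1, and ZHX2, ZBTB20 and ZFHX3 were not called in that interval. Of all tested genes 16.6% rose and 17.4% fell in the earlier interval, and 12.1% rose and 15.4% fell in the later one, shares against which the list counts that follow can also be read. When replicate 1 was the only GD100 library, 1 repressor rose and 1 fell in the earlier interval, and without GD144 replicate 3 1 rose and 1 fell in the later one. ZBTB20, a zinc finger repressor of AFP in postnatal liver, went from 23.6 CPM at GD100 to 67.3 CPM at GD124 and 87.9 CPM at GD144. Its earlier rise was 1.51 ± 0.18 on the log2 scale with an edgeR adjusted p of 9.17e-05, and its later change was 0.39 ± 0.15 with an adjusted p of 0.0712, which passed in 11 of 27 settings. ZHX3, a relative of ZHX2, rose mainly in the later interval, from 9.95 to 43.0 CPM, by 2.11 ± 0.20 with an adjusted p of 4.04e-06. ZHX1 rose in both intervals, by 0.58 ± 0.13 and 0.34 ± 0.12, the earlier call being lost with replicate 1 as the only GD100 library (edgeR adjusted p = 0.161) and the later one without any 1 of GD124 replicates 2, 4 and 5 and GD144 replicates 2, 3, 5 and 6, with an edgeR adjusted p of at most 0.109.

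ZHX2, the locus known for hereditary persistence of AFP in mice, stood at 15.8 CPM at GD100, 10.1 CPM at GD124 and 12.8 CPM at GD144. It fell by 0.65 ± 0.21 in the earlier interval with an edgeR adjusted p of 0.0237, a call lost in 6 of 27 settings, among them those without GD100 replicate 2 or 3 or GD124 replicate 1 or 4, with an adjusted p of 0.612 when replicate 1 was the only GD100 library. For ZFHX3, also known as ATBF1, no comparison was called.

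Among genes listed as activators of the family's promoters, called rises outnumbered called falls in each comparison. The list included PROX1, NFIA, NFIB, NFIC and NFIX, and whether each listed gene activates the promoter of each member was not tested. All 22 listed genes were tested, and 10 rose and none fell between GD100 and GD124, 10 rose and 2 fell between GD124 and GD144, and 16 rose and 2 fell over the whole span. Their median log2 changes were 0.57, 0.46 and 0.97, beside 0.02, -0.01 and 0.03 over all tested genes. HNF4A, a nuclear receptor of the hepatocyte, rose from 114 to 201 and 324 CPM. HLF, a PAR bZIP factor, rose by 0.97 ± 0.17 and then by 1.26 ± 0.15, and CEBPB rose by 1.33 ± 0.22 in the later interval. ONECUT2 had the largest called rise of the earlier interval, 1.83 ± 0.37, with an edgeR adjusted p of 0.00204. With replicate 1 as the only GD100 library fewer of these rises were called between GD100 and GD124 and over the whole span. The earlier interval was then no longer without a called fall. In that setting the median log2 change of the list was 0.50 between GD100 and GD124 and 0.64 over the whole span. The medians over all tested genes were 0.02 and 0.03. The rises of HNF4A and ONECUT2 between GD100 and GD124 then no longer passed. Over the whole span the rise of HNF4A still passed and that of ONECUT2 did not.

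A pair of the listed activators fell between GD124 and GD144. FOXA2, a pioneer factor of endoderm, went from 16.4 CPM at GD124 to 3.40 CPM at GD144 and fell by 2.27 ± 0.26 with an edgeR adjusted p of 2.12e-05. DBP, a clock-controlled factor named for its binding to the albumin promoter, went from 62.2 to 32.0 CPM and fell by 0.96 ± 0.29 with an adjusted p of 0.0212, a call lost without GD124 replicate 4, without GD144 replicate 4 and in 1 further setting. FOXA3 rose in the same interval, by 0.71 ± 0.19, and FOXA1 had a change of 0.43 ± 0.18 with an adjusted p of 0.0952, which passed in 5 of 27 settings, among them those without GD100 replicate 2 or 4.

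**Figure D5:**
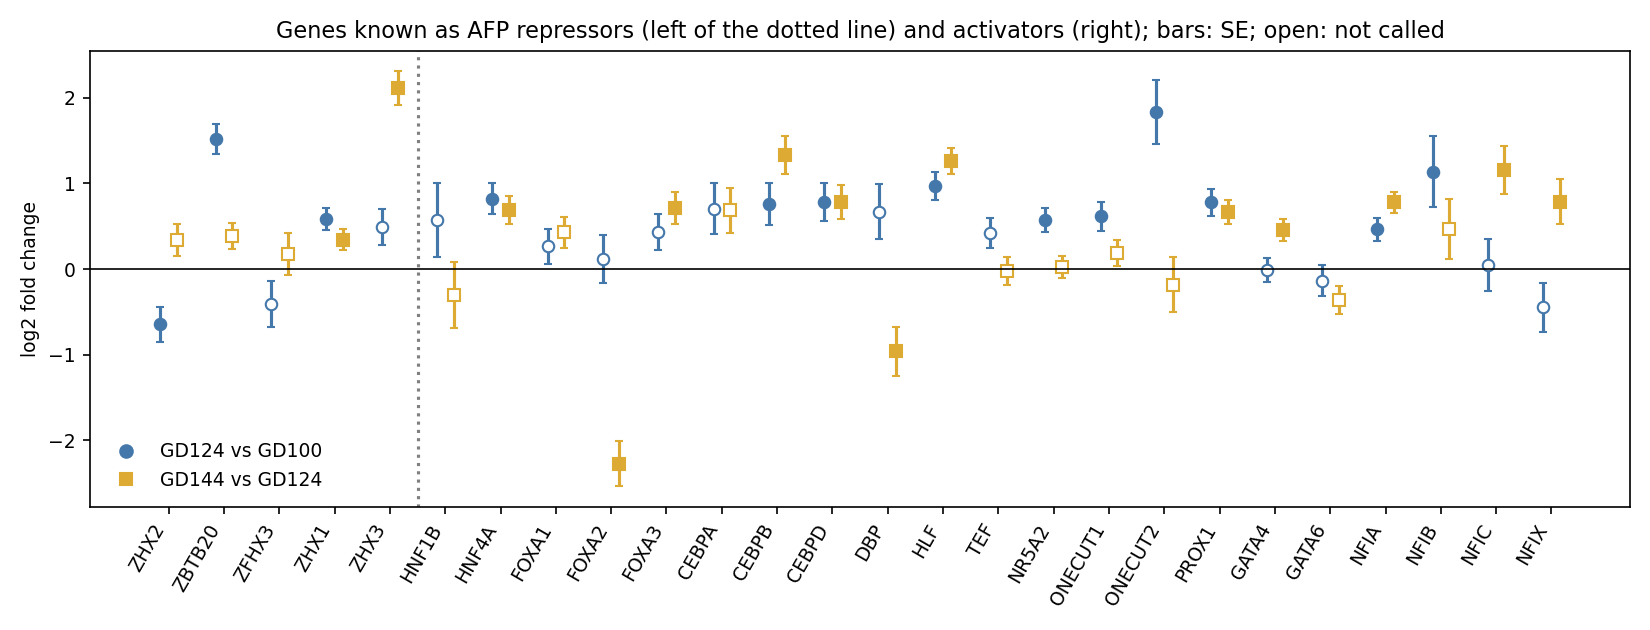
Log2 fold change with standard error in both intervals, for genes listed as repressors of AFP (left of the dotted line) and activators of the family's promoters (right of it). The repressor list includes ZHX1 and ZHX3 as relatives of ZHX2. Filled symbols passed edgeR with an adjusted p under 0.05, and the lowest point is FOXA2 at -2.27 between GD124 and GD144.

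Other genes listed for their expression in fetal liver or in liver tumours, not each of them for both, were counted beside AFP. Of the 10 tested, 2 rose and 5 fell between GD100 and GD124, and none rose and 3 fell between GD124 and GD144, with median log2 changes of -0.36 and -0.16. The earlier count was 1 rise and 2 falls with replicate 1 as the only GD100 library, and without replicate 1 none rose and 5 fell. PLAGL1, an imprinted zinc finger gene, fell from 387 to 120 and 6.87 CPM, by 1.69 ± 0.20 and then 4.13 ± 0.20 on the log2 scale, with edgeR adjusted p-values of 9.17e-05 and 2.1e-09. LIN28B, which blocks maturation of let-7 microRNAs, fell by 2.74 ± 0.64 and 2.63 ± 0.67, from a mean of 3.84 CPM to 0.574 and 0.0833 CPM. Its GD144 libraries ran from 0 to 0.319 CPM, around the floor of 0.0784 to 0.124 CPM, so the size of the later fall is poorly measured. DLK1, a surface protein of hepatoblasts, fell by 1.15 ± 0.19 in the later interval. IGF2BP2, an RNA-binding protein, fell by 0.87 ± 0.17 in the earlier interval. GPC3 (glypican 3) and IGF2, which encodes a fetal growth factor, rose by 0.85 ± 0.29 and 0.70 ± 0.25 between GD100 and GD124, calls lost in 8 and 12 of 27 settings. Both were lost without any 1 of GD100 replicates 1, 2 and 3 and GD124 replicates 1, 2 and 3. The edgeR adjusted p-values were at most 0.122 for GPC3 and 0.11 for IGF2, whose call was also lost without GD124 replicate 4. Over the whole span GPC3 rose by 0.85 ± 0.29, a call lost without GD100 replicate 3, and IGF2 by 0.99 ± 0.24. Of the list 2 rose and 5 fell over that span. The earlier fall of LIN28B did not pass with replicate 1 as the only GD100 library (adjusted p = 0.217).

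Other carriers of plasma were counted beside ALB. Of the 19 tested, 11 rose and none fell between GD100 and GD124, and 4 rose and 2 fell between GD124 and GD144, with medians of 0.96 and 0.09 on the log2 scale. Using GD100 replicate 1 alone for its stage, 9 rose and none fell in the earlier interval and 6 rose and 4 fell in the later one. HRG (histidine-rich glycoprotein) rose by 2.21 ± 0.36 and TF (transferrin) by 1.76 ± 0.41 in the earlier interval. FETUB (fetuin B) first rose by 0.84 ± 0.21 and then fell by 1.95 ± 0.19, and TTR (transthyretin, a carrier of thyroxine and retinol) rose by 1.11 ± 0.32 and then fell by 1.30 ± 0.29. The earlier rise of TTR did not pass without GD100 replicate 3 (edgeR adjusted p = 0.0559) or with replicate 1 as the only GD100 library (0.215). ORM1, an acute phase carrier of basic ligands, rose by 7.26 ± 1.24 between GD124 and GD144 with an edgeR adjusted p of 0.00071. Its GD144 libraries ran from 3.29 to 1310 CPM and its GD124 libraries from 0.612 to 10.1 CPM, so the lowest GD144 library lay within the GD124 range. SELENOP, the plasma carrier of selenium, rose in both intervals, by 1.45 ± 0.29 and 0.91 ± 0.25.

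Genes that handle the ligands of GC and AFM, and those that recycle albumin, were counted next. Of 5 vitamin D genes tested, 3 rose and none fell between GD100 and GD124, and 2 rose and 1 fell between GD124 and GD144. VDR, the vitamin D receptor, rose by 1.04 ± 0.24 in the earlier interval. None of the 5 rose in that interval with replicate 1 as the only GD100 library, the edgeR adjusted p of VDR being 0.0547, and without GD144 replicate 3 4 of them rose. CUBN (cubilin, an uptake receptor for albumin and for the vitamin D carrier) went from 24.2 to 3.06 CPM between GD124 and GD144 and fell by 2.98 ± 0.54 with an edgeR adjusted p of 0.00105. Of 7 genes of vitamin E and WNT handling, 3 rose and none fell in the earlier interval and 2 rose and 1 fell in the later one, and the earlier count was 1 rise with replicate 1 as the only GD100 library and 1 rise and 1 fall with total counts in place of TMM. TTPA, the vitamin E transfer protein of hepatocytes, rose from 30.4 to 72.1 and 206 CPM, by 1.25 ± 0.24 and 1.52 ± 0.22, and PORCN, which attaches the lipid to WNT proteins, fell by 1.23 ± 0.20 in the later interval. FCGRT, the neonatal Fc receptor that spares albumin from breakdown, rose from 78.8 to 128 and 239 CPM, by 0.70 ± 0.22 and 0.90 ± 0.20, the earlier call being lost without GD124 replicate 3 (edgeR adjusted p = 0.055) and with total counts alone (0.0896). It was 1 of 3 called rises in each interval among the 9 genes of albumin recycling and uptake, beside 1 fall, that of CUBN, in the later one. With total counts alone 1 of the 9 rose and 1 fell in the earlier interval, and with replicate 1 as the only GD100 library 2 rose there and 5 rose in the later one.

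Position on the chromosome was read from RefSeq's ovine assembly ARS-UI_Ramb_v3.0 for gene order only, since the build used for counting is not given in the sources used here. In that order ALB, AFP and AFM follow each other, and GC is separated from ALB by 5 protein-coding genes. Of the 7 listed neighbours that were tested, 1 rose and none fell between GD100 and GD124, and 2 rose and none fell between GD124 and GD144, with medians of 0.09 and 0.23 on the log2 scale. The earlier share of rises, 1 of 7, was near the 16.6% of all tested genes. ANKRD17, an ankyrin repeat protein gene next to ALB, had 39.3, 39.6 and 53.0 CPM at the 3 stages, and its log2 change was 0.01 ± 0.11 in the earlier interval and 0.42 ± 0.10 in the later one. SLC4A4, a bicarbonate transporter gene next to GC, rose by 0.96 ± 0.28 in the earlier interval, a call lost without GD100 replicate 2 or replicate 3. NPFFR2, a receptor gene on the other side of GC, rose by 1.53 ± 0.35 in the later interval.

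A pair of genes in this order was picked after its values were seen. LOC101102731, an unnamed protein-coding gene next to AFM, stood at 0.822 CPM at GD100, 3.30 CPM at GD124 and 19.8 CPM at GD144, and rose by 2.02 ± 0.47 and 2.58 ± 0.40 with edgeR adjusted p-values of 0.00433 and 0.000249. It overlaps RASSF6 in the annotation, so reads of these 2 genes may be divided wrongly. DCK (deoxycytidine kinase), which lies beyond SLC4A4, stood at 127, 50.9 and 4.90 CPM and fell by 3.37 ± 0.48 between GD124 and GD144, with an adjusted p of 0.000187. Between GD124 and GD144 LOC101102731 thus rose while AFM, the member next to it, fell by 0.45. AFP itself overlaps LOC132659965, a noncoding gene with 0 to 12 counts at GD100 and none in the other libraries, and GC overlaps an annotated pseudogene that was not used here.

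The genes whose log2 CPM followed each member most closely over the 15 libraries were listed as a description, out of 8204 genes with a symbol and a mean of at least 10 CPM. Libraries of a stage share gestational age and tissue makeup, and r includes the differences between stages. Among the genes most like AFP were STMN1 (stathmin, a tubulin-binding protein of dividing cells, r = 0.987), PLAGL1 (r = 0.975), AMMECR1 (r = 0.972) and SKP2 (a subunit of a cell cycle ubiquitin ligase, r = 0.971). ALB was most like XBP1, a transcription factor of secretory capacity (r = 0.967), then CCL16, ACO1, CFI and SC5D, with r of at least 0.961. XBP1 had 106 ± 26.3 CPM at GD100, 179 ± 16.7 CPM at GD124 and 183 ± 19.7 CPM at GD144. With total counts in place of TMM only 2 of these 5 remained among the closest to ALB.

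GC was most like GALNT11, FKBP9, SDF4, TPST1 and TSPAN12, with r from 0.951 to 0.942. AFM was most like C2H2orf72 (r = 0.950), ELAPOR1, MGST2, ITIH2 (an inter-alpha-trypsin inhibitor heavy chain) and SWAP70. ITIH2 had a mean of 1667 CPM at GD100, 3195 CPM at GD124 and 2117 CPM at GD144, highest at the middle stage as AFM was. Among the members themselves r over the 15 libraries was 0.93 for ALB with GC, 0.75 for ALB with AFM, 0.81 for GC with AFM, and -0.47, -0.31 and 0.08 for AFP with ALB, GC and AFM.

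Markers of dividing cells and of red cell precursors were lower at the later stages, as AFP was. Of 8 proliferation markers, 5 fell between GD100 and GD124 and all 8 fell between GD124 and GD144, and their summed level was 943 to 2177 CPM in GD100 libraries, 373 to 826 CPM in GD124 libraries and 39.2 to 234 CPM in GD144 libraries. Of 9 erythroid markers 1 fell in the earlier interval and all 9 in the later one. Without GD144 replicate 3 all 8 proliferation markers and all 9 erythroid markers fell in the earlier interval, and with replicate 1 as the only GD100 library none of either list did. Their part in the fall of AFP was not tested. GD144 replicate 3, which had the highest erythroid and proliferation sums of its stage, had 5.36 CPM of AFP, below the median of the 6 libraries.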

How the data were processed

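The authors deposited an estimated count of reads per gene for each of the 15 libraries, made with DRAGEN per the submitters' processing notes and not normalised. No version of DRAGEN is named, and the build, gene annotation and strand setting are likewise not given in the sources used here. Fractional values made up 6.549% of all entries. Counts were rounded, and the largest resulting shift of a library total was 27.86 counts. No column lacked a library. Library totals ran from 24215612 to 38247295.

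A single model with 1 coefficient for each stage was fitted to all 15 libraries in edgeR 4.0.16 (R 4.3.3), using TMM factors and the robust quasi-likelihood F-test. After filterByExpr 16977 genes remained, and p-values were adjusted over them by the Benjamini-Hochberg method within each comparison, with a threshold of 0.05. Standard errors were derived from the log2 fold change and its F statistic (change over root F). Log2 ratios of counts (with 1 added to each) and shares of counts were compared by two-sided exact permutation tests over libraries in scipy 1.17.1, adjusted over 18 and 15 tests. The edgeR steps were tested on simulated data in which chosen genes had set fold changes. A chi-square comparison of replicates found no duplicated library.

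The members, the 15 gene lists and the tests were chosen with earlier results of these data known. Lists are described by counts and medians, without a set test, and 131 of their 147 genes were tested. Named are the 4 members, called genes of each list with the largest changes in each direction, members of the repressor, activator and neighbour lists, and the 5 genes most like each member. LOC101102731 and DCK were picked after their values were seen. ASGR1, CD163, CD5L, CLEC4G, COX18, CYP24A1, CYP27A1, CYP27B1, CYP2R1, HP, KRT7 and SERPINA6 are not analysed here, and a few genes that the rule names or the lists hold are not reported here one by one, although list counts and medians include those that were tested. Names were matched to the RefSeq table of ARS-UI_Ramb_v3.0 (28863 matched), used for gene order and overlaps only. Some named genes overlap another gene, among them PLAGL1, HNF4A, NFIA, ZBTB20, ZFHX3, GPC3, LIN28B, VDR and PORCN, and without strand their reads cannot be told apart from those of the partner. Sequences and transcript lengths were not used here, so no level is compared between genes.

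For scaling, the alternatives were RLE size factors, TMM computed without the 4 members, TMM computed without the 20 most abundant genes, and total counts alone. Low counts were filtered at 1 CPM in at least 4 libraries, or not at all beyond a count above 0. Further alternatives were a fit without robust estimation, limma-voom (limma 3.58.1), DESeq2 1.42.0, a replicate block, only the stages compared, GD100 replicate 1 as the only GD100 library, and each library left out in turn, 27 settings in all. Ratios also had pseudocounts of 0.5 and 5, and shares a total without mitochondrial and globin genes. Counts of list genes and of named genes under these settings were added after the data had been seen.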

Additional observations from a re-analysis of the deposited data

Results flagged for a closer look

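The CPM of ALB in GD144 replicate 1, at 46347 CPM, lay far below the other 5 libraries of its stage, and the share of counts taken by the family was lowest in the same library, at 5.66%. The CPM of GC in GD100 replicate 4, at 5309 CPM, lay far above the other 3 libraries of that stage. These 3 came from 15 groups of values checked for an outlying library, and chance alone marks about 1 in 20 such groups. Outside of these, the change from GD124 to GD144 differed from that from GD100 to GD124 by -5.46 on the log2 scale for AFP, -1.70 for GC and -1.14 for AFM, in the edgeR test of the difference itself.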

How the results depend on the processing

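Of the alternatives, using GD100 replicate 1 as the only GD100 library moved most: the count of genes called between GD100 and GD124 went from 5774 to 3167, the log2 change of AFP became -2.15 and that of AFM 0.62, both no longer called, while GC between GD124 and GD144 became called at -0.37. GC also became called at -0.38 when only the stages compared were fitted. AFM between GD124 and GD144 was not called without a filter on low counts (-0.41) or with the replicate block (-0.48), and ran from -0.52 to -0.36 when single libraries were left out. ALB in that interval ran from -0.13 to 0.025, turning positive at 0.025 without GD144 replicate 1, and its share of counts differed by -0.208 to 0.208 percentage points, positive without that library. The log2 ratio of ALB to GC between GD100 and GD124, not called, ran from -0.054 to 0.27, negative without GD100 replicate 2. For the difference between the changes of both intervals, 1002 genes were called, against 1816 with DESeq2, 325 with the replicate block and 379 to 1743 with single libraries left out. ALB in that contrast became called with DESeq2 (-1.38) and with GD100 replicate 1 alone (-1.46), and ran from -1.86 to -1.18 with single libraries left out. GC was not called with the block (-1.89) and ran from -2.13 to -1.51. AFM was not called with the block (-1.21) or with GD100 replicate 1 alone (-1.05), and ran from -1.26 to -0.98. Leaving out a GD100 library leaves fewer permutations, and without any 1 of GD100 replicates 1, 2 and 3 exact tests against GD100 lost their call. The adjusted exact permutation p was then 0.0536 for the log2 ratio of ALB to AFP in both comparisons. For the family's share it was 0.0595 (GD124 against GD100) and 0.0649 (GD144 against GD100). With single libraries left out, the step in the log2 ratio of ALB to AFP ran from 3.29 to 3.74 (GD124 against GD100) and from 10.81 to 11.28 (GD144 against GD100). The family's share rose by 3.20 to 4.62 and by 2.82 to 4.25 percentage points. With total counts alone 2 of the 5 genes most like ALB were kept. The labels do not say that replicate numbers pair the libraries. Of 13 same-number pairs 1 had a correlation of deviations over 0.1, and they ran from -0.155 to 0.144. Pairs with different numbers were not computed, so these values cannot show whether a pairing exists. The fall of AFP kept its direction and call between GD124 and GD144 and over the whole span in all 27 settings. Depth does not limit AFP at GD144, where the lowest library held 120 counts.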
